A study of Mus musculus with 9 samples.

Results

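The genes described here are the liver's bile acid synthesis enzymes together with the nuclear receptors FXR and SHP. They were taken by symbol from the gene table, and all 10 symbols were found among its 34745 genes. Cyp7a1 and Cyp8b1 belong to the classic route, Cyp27a1 and Cyp7b1 to the alternative route, and Hsd3b7, Akr1d1, Slc27a5 and Baat to the steps both routes share. Nr1h4 encodes FXR and Nr0b2 encodes SHP. All 10 had enough counts to be tested.

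Gene expression was measured by RNA sequencing of whole liver from C57BL/6 mice in 3 groups of 3 libraries. The control group is labelled as control only, and the labels do not say whether it was given a vehicle. The TAA with vehicle group drank water with 400 mg/L thioacetamide (TAA), a hepatotoxic compound used as a model of liver fibrosis in rodents, for 16 weeks, with vehicle each day from week 13 on. The TAA with sulodexide group had the same TAA water and, over the same last 4 weeks, daily sulodexide, a glycosaminoglycan drug. Every group carries the same strain background with no transgene named, and the labels give neither the dose of sulodexide, the sex or age of the mice nor whether each library is a separate animal. The p-values therefore measure the spread between these libraries.

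Bile acids are made from cholesterol in hepatocytes. The classic route starts with ring hydroxylation by CYP7A1, its rate-limiting enzyme, and the alternative route starts with side-chain oxidation by CYP27A1 followed by CYP7B1. Bile acids activate FXR, which induces SHP, and SHP in turn represses Cyp7a1 and Cyp8b1, while FXR in the intestine also induces the hormone FGF15, which represses synthesis through its receptor on hepatocytes.

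The libraries held 13803697 to 16655951 counts. Of these genes, 13701 passed the filter on low counts. Levels within a gene are given as CPM, the gene's counts relative to the library total, scaled with TMM factors. These ranged from 0.821 to 0.919 in controls, from 1.081 to 1.185 with TAA and vehicle and from 1.012 to 1.036 with sulodexide. Changes are log2 differences from the quasi-likelihood test of edgeR, with Benjamini-Hochberg adjusted p over all 13701 genes, and a gene rose or fell where that p was below 0.05. The tissue label was met by its markers: 9 hepatocyte genes such as Alb and Apoa1 summed to 93900 to 133000 CPM over the 9 libraries. The Y-linked genes Ddx3y, Eif2s3y, Kdm5d and Uty were present in every library, and Xist had 0 to 5 counts. Their sum with Xist was 86.3 to 104 CPM in controls, 31.4 to 41.5 with TAA and vehicle and 35.6 to 45.3 with sulodexide. All 4 fell with TAA and vehicle and 3 of 4 were lower with sulodexide than in controls, and their part in the results was not tested.

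TAA with vehicle against control. This comparison asks how the bile acid synthesis genes stood in the fibrotic liver. Of the 10 genes, 8 fell and 0 rose, where 20.4% of all tested genes fell and 23.1% rose (43.4% in either direction). Cyp7a1 fell 11.9-fold and Cyp7b1 fell 7.64-fold, while the other 6 fell between 1.63-fold and 2.52-fold. Hsd3b7 and Nr0b2 did not pass. The median log2 change of the 10 was -1.02, against 0.01 over all tested genes. In the same 8 genes every library with TAA and vehicle lay below every control library, which was so, in either direction, for 56.8% of all tested genes. At an unadjusted p below 0.05 and with DESeq2 the count of genes that rose was also 0. When libraries were scaled by total counts in place of TMM factors, the median of all genes moved to 0.41, the share of higher genes among those called went from 53.1% to 83.3%, and 6 of the 10 fell.

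**Figure D1:**
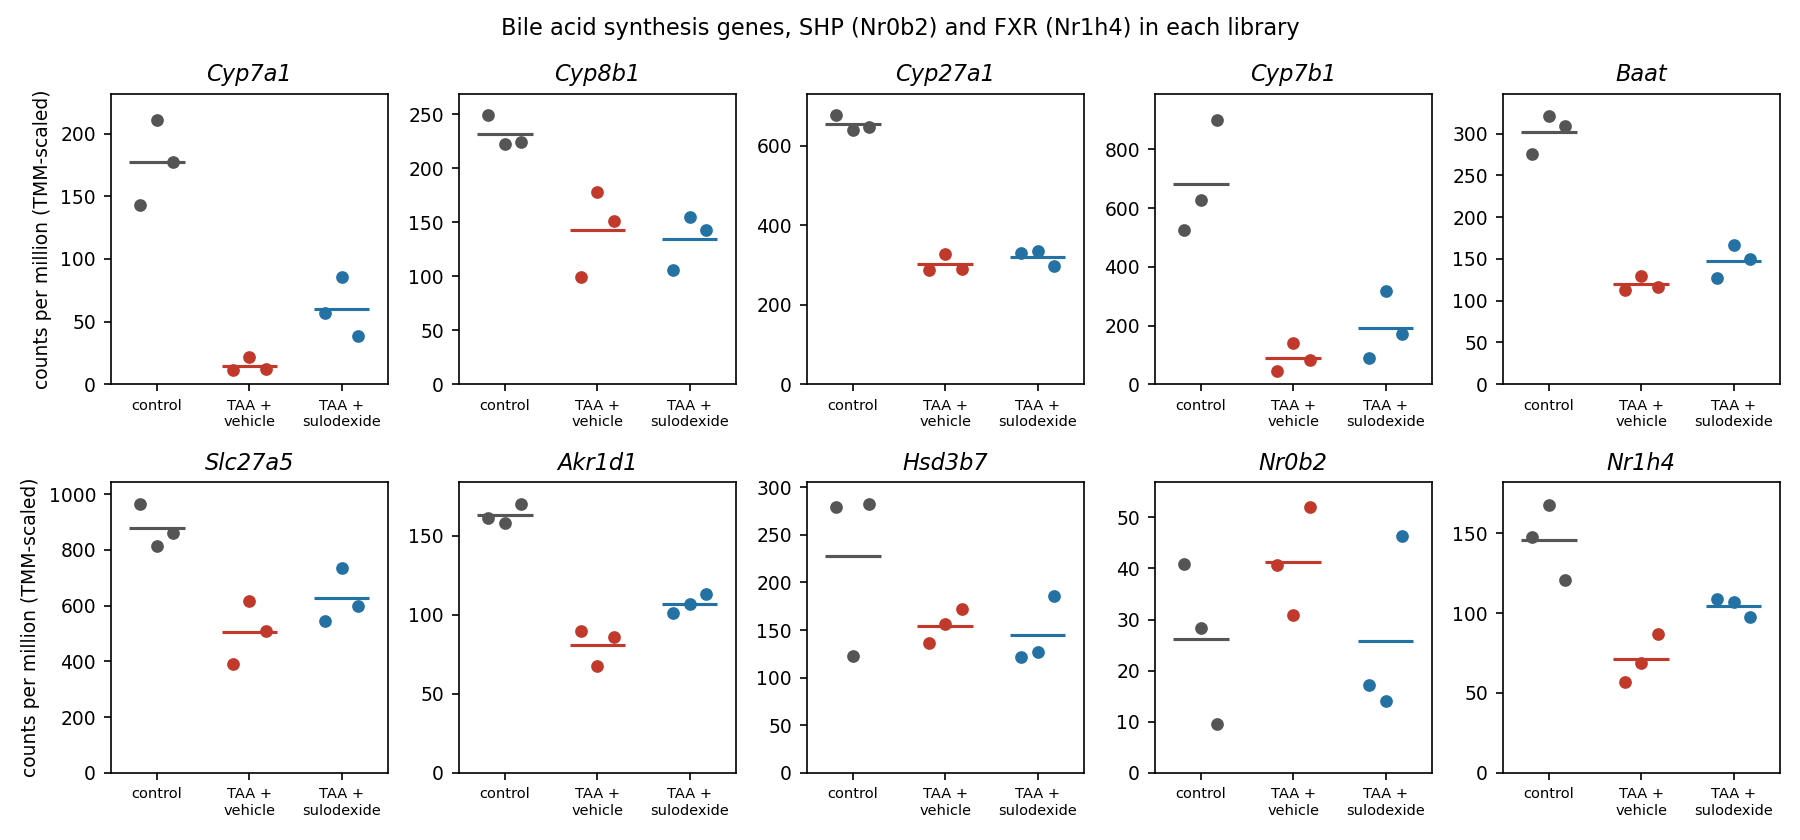
Level in CPM (TMM-scaled, linear axis from 0) of the 10 genes in each library, with 1 point per library and a line at the group mean (n = 3). Cyp7a1 lay between 143 and 211 CPM in controls, between 11.1 and 21.7 with TAA and vehicle and between 38.8 and 85.9 with TAA and sulodexide, with no overlap between the groups.

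Cyp7a1 (ENSMUSG00000028240, chromosome 4, 6265612 to 6275633, GRCm38, minus strand) encodes the hydroxylase that sets the rate of the classic route. It stood at 143, 211 and 177 CPM in the control libraries and at 11.1, 21.7 and 11.8 CPM with TAA and vehicle. The highest TAA library was far below the lowest control. The log2 change was -3.57 (SE 0.36, 95% interval -4.38 to -2.76, adjusted p = 8e-05), and only 56 of the 13701 tested genes had a lower value. Under the 15 alternative settings it ranged from -3.95 to -2.91 and stayed past the threshold.

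Cyp8b1 (ENSMUSG00000050445, chromosome 9, 121914356 to 121916305, minus strand) encodes the hydroxylase that directs the classic route towards cholic acid. Its control libraries lay close together at 249, 223 and 224 CPM. With TAA and vehicle they were spread over 99.1, 178 and 151 CPM, all below the controls. It fell by 0.70 on the log2 scale (SE 0.20, adjusted p = 0.017). Cyp7a1, in the same route, had a larger fitted fall. This call was lost with total counts, where the change was -0.32 (adjusted p = 0.208).

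Cyp27a1 (ENSMUSG00000026170, chromosome 1, 74713574 to 74737892, plus strand) encodes the mitochondrial side-chain hydroxylase that opens the alternative route. It held 677, 639 and 648 CPM in controls and 287, 327 and 291 CPM with TAA and vehicle. It varied little within either group, with a coefficient of variation of 3.04% and 7.27%. It fell by 1.12 on the log2 scale (SE 0.11, adjusted p = 3.59e-05).

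Cyp7b1 (ENSMUSG00000039519, chromosome 3, 18071950 to 18243338, minus strand) encodes the hydroxylase that acts on the oxysterols made by CYP27A1 and is known to be higher in male than in female mouse liver. The control libraries gave 524, 626 and 900 CPM. With TAA and vehicle the values were 44.8, 141 and 82.4 CPM, so that the groups stood apart although each was widely spread. The log2 change was -2.93 (SE 0.57, 95% interval -4.26 to -1.61, adjusted p = 0.00461), and 87 tested genes had a lower value. Of the pair of alternative-route genes, Cyp7b1 had the larger fitted fall. The difference between them was not tested.

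Of the shared steps, Akr1d1 (ENSMUSG00000038641, chromosome 6, 37530173 to 37568815, plus strand) encodes the reductase that gives the steroid nucleus its bent form. It went from 161, 158 and 170 CPM to 89.8, 67.3 and 85.8 CPM, a log2 change of -1.01 (SE 0.13, adjusted p = 0.000138). Slc27a5 (ENSMUSG00000030382, chromosome 7, 12988346 to 12998192, minus strand) encodes the ligase that attaches coenzyme A to bile acids before conjugation. It went from 965, 814 and 860 CPM to 389, 618 and 510 CPM, a log2 change of -0.80 (SE 0.18, adjusted p = 0.00426). The change was -0.41 (adjusted p = 0.0718) with total counts.

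Baat (ENSMUSG00000039653, chromosome 4, 49489422 to 49506557, minus strand) encodes the transferase that joins bile acids to taurine or glycine. It went from 275, 321 and 309 CPM to 113, 129 and 117 CPM, and both groups were tight. The log2 change was -1.33 (SE 0.13, adjusted p = 3.16e-05), the largest among the genes of the shared steps.

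Hsd3b7 (ENSMUSG00000042289, chromosome 7, 127800604 to 127803802, plus strand) encodes the dehydrogenase that acts after ring hydroxylation in both routes. Control libraries 1 and 3 had 279 and 283 CPM while control library 2 had 123 CPM, and the TAA with vehicle libraries had 136, 156 and 172 CPM. The groups overlapped through that control library alone. The log2 change was -0.56 (SE 0.29, 95% interval -1.21 to 0.09, adjusted p = 0.147), and without control library 2 it was -0.88 (adjusted p = 0.00582). The gene is overlapped on its own strand by the protein-coding gene Gm49388 and on the other strand by 9430064I24Rik, and the length behind its deposited FPKM, 7044 bases, exceeds its span of 3199 bases. Its reads may be shared with these genes, so its level and change are uncertain.

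Nr1h4 (ENSMUSG00000047638, chromosome 10, 89454234 to 89533585, minus strand) encodes FXR, the receptor for bile acids. It held 148, 168 and 121 CPM in controls and 57, 68.9 and 87.1 CPM with TAA and vehicle, with no overlap. It fell by 1.04 on the log2 scale (SE 0.17, adjusted p = 0.000631). Nr0b2 (ENSMUSG00000037583, chromosome 4, 133553376 to 133556536, plus strand) encodes SHP, the repressor that FXR induces. It held 40.8, 28.3 and 9.63 CPM in controls and 40.7, 30.9 and 52.1 CPM with TAA and vehicle. The groups overlapped, the log2 change was 0.65 (SE 0.60, 95% interval -0.74 to 2.04, adjusted p = 0.417), and the interval holds both a fall and a rise of more than 1.5-fold. SHP varied widely between libraries of a group, with a coefficient of variation of 59.7%, 25.8% and 69.1% in the control, vehicle and sulodexide groups.

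RefSeq (GRCm38.p6) gave promoter windows, from 250 bases before to 50 bases after the start, for 6 of the 10 genes: Cyp8b1, Cyp27a1, Akr1d1, Hsd3b7, Nr0b2 and Nr1h4. They were searched on both strands for AGGTCA, the basic unit that nuclear receptors bind and that 16.3% of all 32817 windows hold. Akr1d1 had it at 2 places and Nr1h4 at 1, all on the opposite strand, and the other 4 windows had no match. The inverted repeat AGGTCANTGACCT, the form known for FXR, is in 3 of all windows (0.00914%), the direct repeat AGGTCANAGGTCA in 13 (0.0396%) and CAAGGTC, the form known for LRH-1, in 3.96%, and none of the 6 genes matched these. The repeats contain the basic unit, so their matches overlap its matches. The windows of the 2 genes with a match are shown up to the base before the start, 5′ to 3′ on the strand of the gene, with the matched bases in capitals, at chr6:37529923-37530172 (plus strand) for Akr1d1 and chr10:89506659-89506908 (minus strand) for Nr1h4. The Nr1h4 window belongs to a RefSeq start inside the span of the gene given above, not at its outer end. Both genes fell with TAA, as did Cyp8b1 and Cyp27a1, whose windows had no match. A match of letters does not show that a receptor binds there. Only exact letters within these windows were searched, so a window without a match may still hold a variant site.
Akr1d1: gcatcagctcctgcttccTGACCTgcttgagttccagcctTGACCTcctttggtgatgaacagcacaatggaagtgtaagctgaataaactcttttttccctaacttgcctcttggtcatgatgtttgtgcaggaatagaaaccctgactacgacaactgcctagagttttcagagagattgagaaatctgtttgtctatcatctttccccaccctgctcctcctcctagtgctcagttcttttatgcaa
Nr1h4: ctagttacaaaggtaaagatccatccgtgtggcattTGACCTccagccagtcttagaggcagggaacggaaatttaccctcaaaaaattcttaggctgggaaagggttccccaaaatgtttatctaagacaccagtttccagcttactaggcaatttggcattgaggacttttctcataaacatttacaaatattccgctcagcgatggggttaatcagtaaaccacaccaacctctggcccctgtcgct
The matches run from -232 to -227 and from -210 to -205 in Akr1d1 and from -214 to -209 in Nr1h4, counted back from the start.

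**Figure D2:**
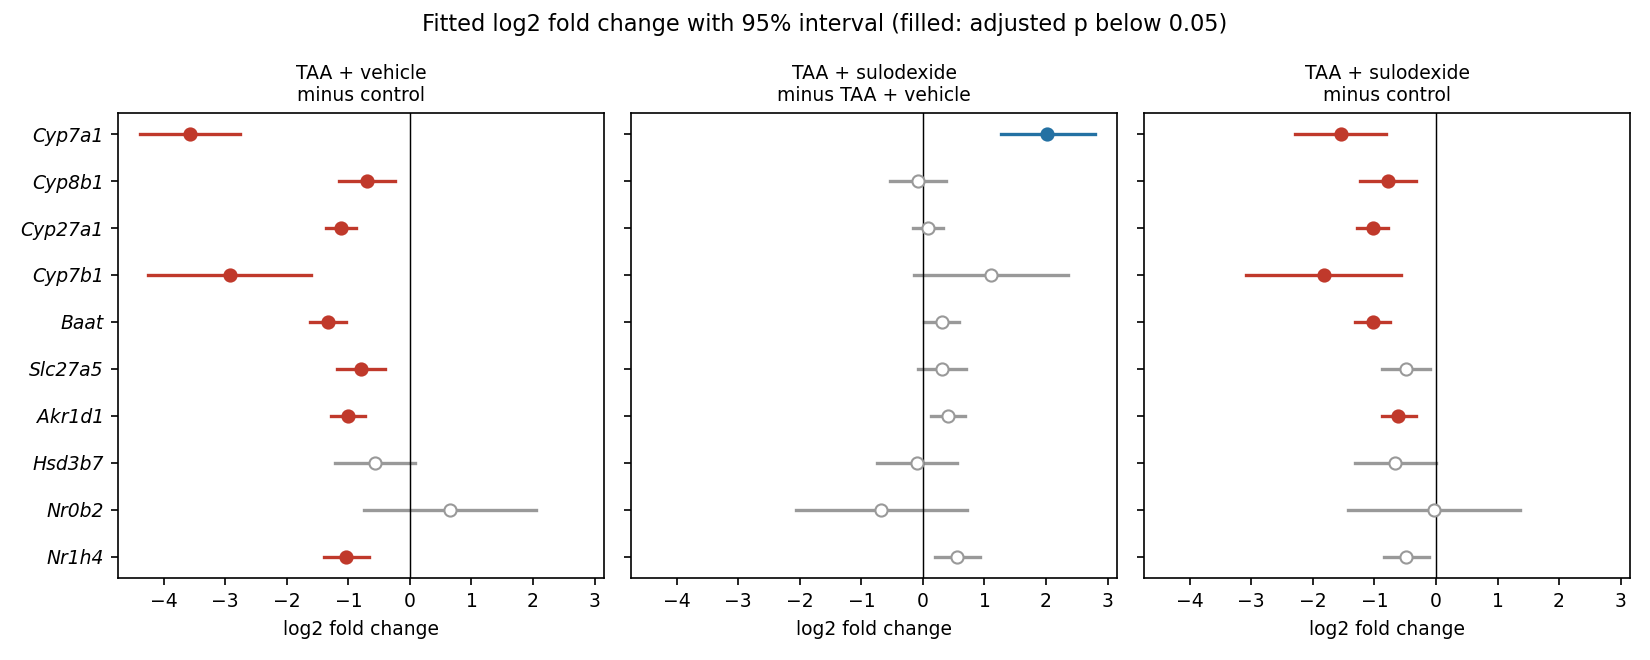
Fitted log2 fold changes (points) of the 10 genes with 95% intervals (lines) in the 3 comparisons, filled where the edgeR adjusted p was below 0.05. With TAA and vehicle 8 genes fell, Cyp7a1 alone rose between sulodexide and vehicle, and 6 genes were below control with sulodexide.

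TAA with sulodexide against TAA with vehicle. This comparison asks whether the drug changed these genes while TAA was continued. Cyp7a1 rose 4.06-fold and was the only one of the 10 to pass, where 4.8% of all tested genes passed, 1.39% higher and 3.41% lower. With total counts 11.6% of the genes that passed were higher, against 29% with TMM factors, and the median of all genes moved from 0.02 to -0.12. The median of the 10 was 0.31, against 0.02 over all tested genes. None of the 10 fell, also at an unadjusted p below 0.05 and with DESeq2. At an unadjusted p below 0.05, 4 were higher (Cyp7a1, Baat, Akr1d1 and Nr1h4). The share of all tested genes at the unadjusted threshold is not given here, so this count cannot be set against it.

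Cyp7a1 stood at 56.5, 85.9 and 38.8 CPM in the sulodexide libraries, each above the highest of the vehicle libraries listed above (21.7 CPM). The means were 60.4 ± 23.8 and 14.9 ± 5.93 CPM (SD, n = 3). The log2 change was 2.02 (SE 0.34, 95% interval 1.26 to 2.79, adjusted p = 0.0156), and 36 tested genes had a larger rise. The call was lost without either of 2 vehicle libraries: without vehicle library 1 the adjusted p was 0.0637 (log2 1.85) and without vehicle library 3 it was 0.0656 (log2 1.88). Over the 15 alternatives the change ranged from 1.62 to 2.40.

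Groups stood apart without passing in a further 2 genes, where 24.2% of all tested genes stood apart. Akr1d1 held 101, 107 and 113 CPM with sulodexide, above all vehicle libraries, with a log2 change of 0.40 (95% interval 0.13 to 0.68, adjusted p = 0.1). Nr1h4 held 109, 107 and 97.9 CPM, also above all vehicle libraries, with a log2 change of 0.55 (95% interval 0.19 to 0.92, adjusted p = 0.0861). With DESeq2 the adjusted p of Nr1h4 was 0.0389 and the count of the 10 that rose was 2, where 388 of 13694 tested genes rose.

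The remaining 7 genes overlapped between sulodexide and vehicle. Cyp7b1 had 90.7, 317 and 172 CPM with sulodexide, and its library 1 lay within the vehicle range. Its log2 change of 1.11 had an interval from -0.14 to 2.36 (adjusted p = 0.302), so that neither no change nor a rise of 4-fold lay outside it. Baat had 127, 167 and 150 CPM (log2 0.31, 95% interval 0.02 to 0.59, adjusted p = 0.212) and Slc27a5 had 544, 736 and 597 CPM (log2 0.31, interval -0.08 to 0.70, adjusted p = 0.364).

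The other enzymes had fitted changes near 0, with wider intervals for Cyp8b1 and Hsd3b7 than for Cyp27a1. Cyp27a1 had 329, 336 and 297 CPM with sulodexide and a log2 change of 0.09 with a narrow interval of -0.16 to 0.33, and with total counts the value was -0.05. Cyp8b1 had 106, 155 and 143 CPM and a change of -0.08 (interval -0.53 to 0.37), which turned to 0.11 without vehicle library 2. Hsd3b7 had 122, 127 and 186 CPM and a change of -0.09 (interval -0.74 to 0.56). The repressor gene Nr0b2 had 17.1, 14 and 46.3 CPM and a change of -0.68 (interval -2.07 to 0.71, adjusted p = 0.582). Its library 3 lay among the vehicle libraries while the others lay below them.

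TAA with sulodexide against control. This comparison asks how far the treated livers stood from the untreated ones. Of the 10 genes 6 were lower, 4 did not pass and 0 were higher, where 11.4% of all tested genes were lower and 11.2% higher (22.6% in all). None was higher at an unadjusted p below 0.05 or with DESeq2. The groups stood apart in 8 of the 10, where 42% of all tested genes stood apart, and the median was -0.72 against 0.02 over all genes. With total counts 3 of the 10 were lower, the median of all genes was 0.27, and 81.4% of the genes called were higher, against 49.6% with TMM factors.

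Cyp7a1 remained lower than control by 1.55 on the log2 scale, or 2.93-fold (SE 0.33, adjusted p = 0.00988). Cyp27a1 was lower by 1.03 (adjusted p = 0.000164), close to its fall of 1.12 with vehicle. Baat was lower by 1.03 (adjusted p = 0.000388), against 1.33 with vehicle. Akr1d1 was lower by 0.61 (adjusted p = 0.00643) and Cyp8b1 by 0.78 (adjusted p = 0.0191). Both calls were lost with total counts (adjusted p = 0.064 and 0.066) and in the 3 limma fits on FPKM (0.0641 to 0.103 and 0.0716 to 0.136). That of Cyp8b1 was also lost without control library 1 (0.0567) or sulodexide library 1 (0.0635).

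Cyp7b1 was lower by 1.82 (SE 0.55, adjusted p = 0.0482), a call that 8 of the 15 alternatives did not keep. Among those that kept it, the adjusted p was 0.00452 with the replicate block (log2 -2.02) and 0.00953 with DESeq2. Without control libraries 1, 2 and 3 in turn the adjusted p was 0.0702, 0.0901 and 0.12, and without sulodexide libraries 1 and 3 it was 0.0976 and 0.129. Nr1h4 (log2 -0.48, adjusted p = 0.0579) and Slc27a5 (log2 -0.49, adjusted p = 0.0692) lay below every control library without passing, and with DESeq2 both passed (adjusted p = 0.0342 and 0.037). Nr1h4 also passed without control library 3 (adjusted p = 0.037). Hsd3b7 had a log2 value of -0.66 (adjusted p = 0.134), and it passed without control library 2 (-0.97, adjusted p = 0.00887). Nr0b2 was at -0.03 (interval -1.43 to 1.37).

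The comparisons share libraries: the vehicle libraries enter the first 2 and the control libraries the first and the last. Side by side, Cyp7a1 was 3.57 below control with vehicle and 1.55 below with sulodexide on the log2 scale. Cyp27a1 was 1.12 and 1.03 below, Cyp8b1 0.70 and 0.78 below, Cyp7b1 2.93 and 1.82 below, Baat 1.33 and 1.03 below, and Nr1h4 1.04 and 0.48 below. The test of each such difference is the comparison of sulodexide with vehicle above, which Cyp7a1 alone passed.

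Levels between genes were compared per length, in the FPKM values deposited by the authors. In controls Cyp7b1 was highest with 269 ± 63.3 FPKM (SD, n = 3), overlapping Slc27a5 with 190 ± 27.8, which overlapped Cyp27a1 with 181 ± 16.2. Cyp8b1 (103), Baat (86.2) and Akr1d1 (48.1 FPKM) followed without overlap between neighbours. Nr1h4 (39.7), Cyp7a1 (34.4), Hsd3b7 (28) and Nr0b2 (20.4 FPKM) came last and overlapped each with the next.

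With TAA and vehicle the order began with Slc27a5 (143 FPKM), Cyp27a1 (110), Cyp8b1 (82.3) and Cyp7b1 (46.5), each overlapping the next. Cyp7a1 was last with 3.83 ± 1.53 FPKM, below every library of every other gene of the 10. Nr0b2, last in controls, stood sixth with 41 ± 9.5 FPKM and overlapped Baat above and Akr1d1 below it. With sulodexide Slc27a5 (161 FPKM) was highest, apart from Cyp27a1 (106), and Cyp7b1 (91.6) came before Cyp8b1 (71), with overlap. Cyp7a1 was again last with 14.1 ± 5.7 FPKM, and here it overlapped Hsd3b7 (21.1).

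Ratios of FPKM within a library give the balance of enzymes whatever the library scaling. Cyp8b1 stood to Cyp7a1 at 3.94, 2.38 and 2.86 in the controls, at 20.1, 18.4 and 28.8 with TAA and vehicle and at 4.23, 4.08 and 8.33 with sulodexide. The vehicle libraries lay above all others, and the sulodexide libraries above the controls. For Cyp7b1 to Cyp27a1 the ratios were 1.11, 1.4 and 1.99 in controls, 0.224, 0.621 and 0.407 with vehicle and 0.396, 1.36 and 0.829 with sulodexide. The vehicle libraries were below the controls, and the sulodexide libraries overlapped both groups. The ratio of Cyp7b1 to Cyp7a1, from 3.26 to 14.1 over the 9 libraries, overlapped between all groups. These ratios are descriptions without a test.

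**Figure D3:**
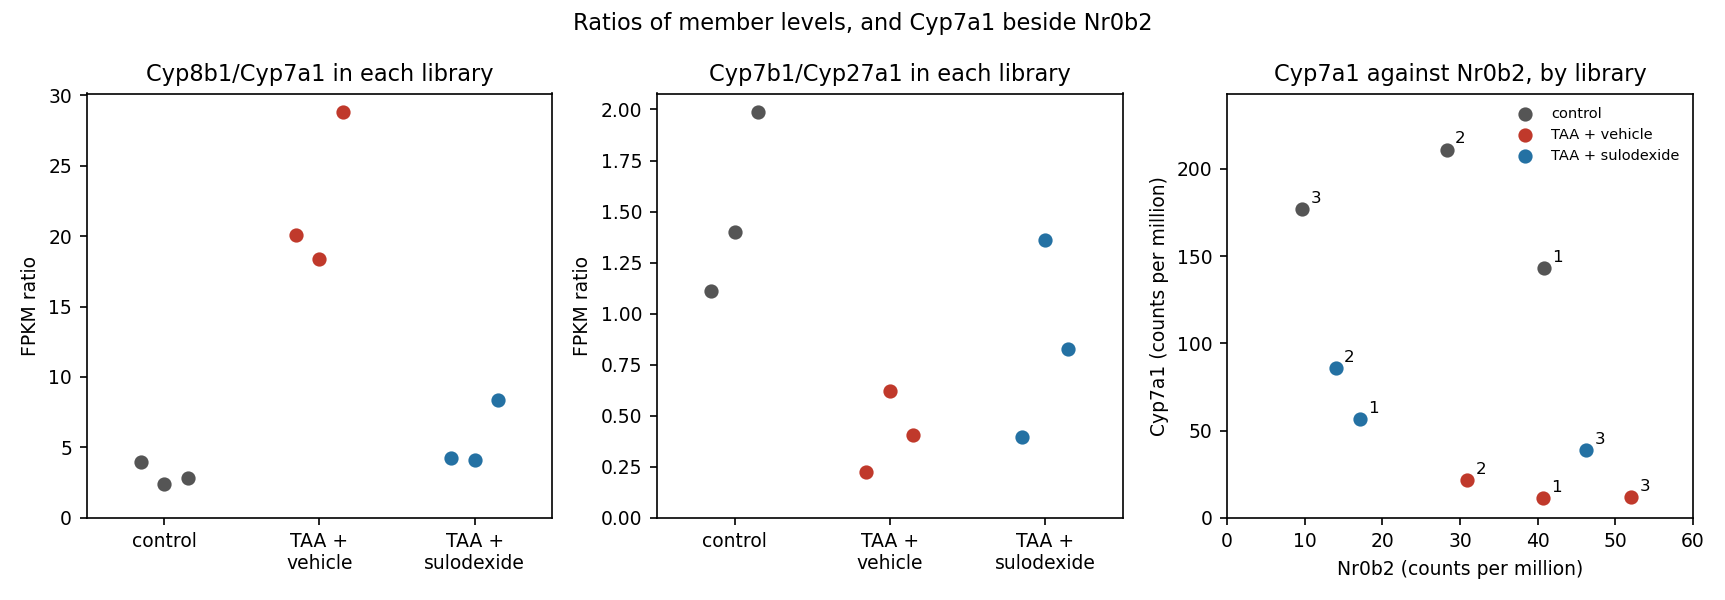
FPKM ratio of Cyp8b1 to Cyp7a1 and of Cyp7b1 to Cyp27a1 in each library (left and middle, linear axes from 0), and Cyp7a1 against Nr0b2 in CPM with library numbers (right). The Cyp8b1 to Cyp7a1 ratio was 18.4 to 28.8 with TAA and vehicle, 2.38 to 3.94 in controls and 4.08 to 8.33 with sulodexide. On the right the groups stood apart in Cyp7a1 and overlapped in Nr0b2.

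The repressor and its target are shown side by side in the plot of Cyp7a1 against Nr0b2. The groups stood apart in Cyp7a1 but overlapped in Nr0b2, at 9.63 to 40.8, 30.9 to 52.1 and 14 to 46.3 CPM in the control, vehicle and sulodexide groups. Each group has 3 libraries, too few for a correlation, and no relation between the genes was tested.

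For each gene the tested genes with the smallest root mean square difference of centred log2 CPM over the 9 libraries were named, with no test. Closest to Cyp7a1 was Mcm10 (0.253), a DNA replication factor gene, at 166 ± 20.3, 13.1 ± 4.33 and 59.1 ± 17.1 CPM in the control, vehicle and sulodexide groups (SD, n = 3). Adh6-ps1 (0.471) and Capn8 (0.472) followed. For Cyp7b1 these were Mup13 (0.295), Gm38357 (0.332) and Mup14 (0.394). The Mup genes are near-identical copies among which reads can be split, so their counts are uncertain. The lists were Nr6a1, Rps6ka5 and Hnf1aos1 for Cyp8b1, Rsrc1, Serpinf1 and Acat1 for Cyp27a1, and Chac2, Ghr (the growth hormone receptor gene) and Hgfac for Baat. For Slc27a5 they were Zfp638, Chd3 and Mctp2, for Akr1d1 Rbbp9, Sec62 and Camk2n1, and for Hsd3b7 Eif4h, Nsun4 and Trpt1. For Nr0b2 they were Mycl, BC022687 and Cyr61, and for Nr1h4 Tmem120b, Gm11844 and Whsc1l1. The distance was smallest for Cyp27a1 (0.064) and largest for Nr0b2 (0.356) among the closest genes.

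Other enzymes, electron donors and peroxisomal steps of bile acid synthesis numbered 18, of which 17 were tested. With TAA and vehicle 11 fell and 1 rose, where 20.4% of all tested genes were lower and 23.1% higher. Cyp2c70, which makes muricholic acids in mice, fell from 1540 ± 224 to 338 ± 31.1 CPM (SD, n = 3), a log2 change of -2.18. Sult2a8, a bile acid sulfotransferase gene, fell from 505 ± 70.5 to 40.8 ± 15.3 CPM (log2 -3.63). The peroxisomal genes Scp2 (-1.71), Slc27a2 (-1.47), Hsd17b4 (-0.61), Amacr (-0.54) and Acox2 (-0.50) fell, as did the hydroxylase genes Cyp39a1 (-1.47) and Cyp46a1 (-1.57).

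The electron donor genes Por (-1.14) and Fdx1 (-0.63), which serve the microsomal and mitochondrial hydroxylases, fell as well. Acnat2, a relative of Baat in the peroxisome, rose from 27 ± 13.3 to 114 ± 6.51 CPM (log2 2.09), opposite to Baat. The median of the list was -0.61. With total counts 6 fell and 1 rose, and Acox2, Amacr, Hsd17b4, Fdx1 and Cyp46a1 no longer passed, with the same direction. Cyp46a1, at 1.71 ± 0.478 CPM in controls, also missed the threshold without control library 1 or 2 or vehicle library 1 or 2.

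Between sulodexide and vehicle, 2 of these 17 rose and 0 fell (also 0 fell at an unadjusted p below 0.05 and with DESeq2), with a median of 0.29. Over all tested genes 1.39% rose and 3.41% fell. Slc27a2 went from 498 ± 41.6 to 767 ± 19.1 CPM (log2 0.62, adjusted p = 0.0156) and Sult2a8 from 40.8 ± 15.3 to 86 ± 20.7 CPM (log2 1.08, adjusted p = 0.0437). The call of Slc27a2 was lost without vehicle library 1 (adjusted p = 0.0676), vehicle library 3 (0.0531) or sulodexide library 2 (0.0609). That of Sult2a8 was lost in 9 of the alternatives, with adjusted p from 0.0526 to 0.16, among them leaving out vehicle library 1 or 3 or sulodexide library 2 or 3. Against control with sulodexide, 7 were lower (Cyp2c70, Sult2a8, Slc27a2, Scp2, Por, Fdx1 and Acox2, log2 -2.55 to -0.37) and Acnat2 was higher (2.26), where 11.4% of all tested genes were lower and 11.2% higher. Of these calls, that of Acox2 was lost when any of the 6 libraries compared was left out, and that of Fdx1 without control library 2 or 3 or sulodexide library 1 or 2 (adjusted p 0.0519 to 0.0595).

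Of 11 genes of the FXR axis outside the 10, 8 were tested. Fgf15, the intestinal hormone gene, and Slc51a, an export carrier subunit gene, had 0 counts in all libraries, and Slc51b had 0 to 21. All 8 tested genes changed with TAA and vehicle, 6 lower and 2 higher, where 20.4% of all tested genes were lower and 23.1% higher. Lower were Rxra, the FXR partner (-0.73), Fgfr4 (-0.95) and Klb (-0.49), the receptor pair for FGF15, the bile salt export pump gene Abcb11 (-0.73), Fetub (-1.06) and the repressor gene Mafg (-0.51). Abcb4, the phospholipid exporter gene, rose by 0.66 and Osgin1 by 2.15 on the log2 scale.

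Fgfr4 went from 57.4 ± 2.89 to 29.6 ± 3.73 CPM, and Osgin1, also known as an oxidative stress gene, from 43.2 ± 14.5 to 192 ± 37.2 CPM. The count that fell was 3 to 5 whenever 1 of the 6 libraries was left out, as Abcb11, Mafg or Klb missed the threshold (adjusted p 0.0518 to 0.124), and 2 with total counts, where Rxra, Abcb11, Mafg and Klb did. Between sulodexide and vehicle, Osgin1 alone passed and fell to 41.1 ± 16.7 CPM (log2 -2.22, adjusted p = 0.0108), a call lost without sulodexide library 3 (adjusted p = 0.0542). With sulodexide against control Fgfr4 (-1.14) and Fetub (-0.70) were lower and Abcb4 (0.71) was higher. Fetub missed the threshold without control library 2 or 3 or sulodexide library 1 or 3 (adjusted p 0.0616 to 0.104).

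Of 17 other regulators, 6 fell and 2 rose with TAA and vehicle, a share near the 43.4% of all tested genes that changed. Nr1i3, the receptor CAR, fell from 231 ± 25.7 to 48.1 ± 2.48 CPM (log2 -2.26), Cebpa from 396 ± 36.6 to 186 ± 5.26 CPM (log2 -1.09), and Foxa2 (-0.79), Prox1 (-0.60) and Nr1h3 (-0.35), the receptor LXR alpha, were also lower. Nr1h2, its beta form, rose by 0.50 and Jun by 1.11. Hnf4a and Nr5a2 (LRH-1), activators of Cyp7a1 and Cyp8b1, did not pass, with values of -0.01 and -0.20.

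The calls of Nr1h3, Prox1 and Jun were each lost when any of 5 of the 6 libraries compared was left out. With total counts the log2 value of Nr1h3 turned to 0.05, 3 regulators fell and 6 rose, with Foxa2 no longer passing (-0.39, adjusted p = 0.072) and among the higher ones Hnf4a (0.39, adjusted p = 0.0332) at a median of all genes of 0.41. Between sulodexide and vehicle Foxa2 (log2 0.88, adjusted p = 0.0137) and Cebpa (log2 0.58, adjusted p = 0.0214) rose. Foxa2 missed the threshold without vehicle library 3 (0.0603), and Cebpa without vehicle library 1 (0.0874) or 3 (0.0794) or sulodexide library 2 (0.0775) or 3 (0.0512). Against control with sulodexide, 3 of the 17 were lower, among them Nr1i3 (-1.76) and Cebpa (-0.51), where 11.4% of all tested genes were lower.

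**Figure D4:**
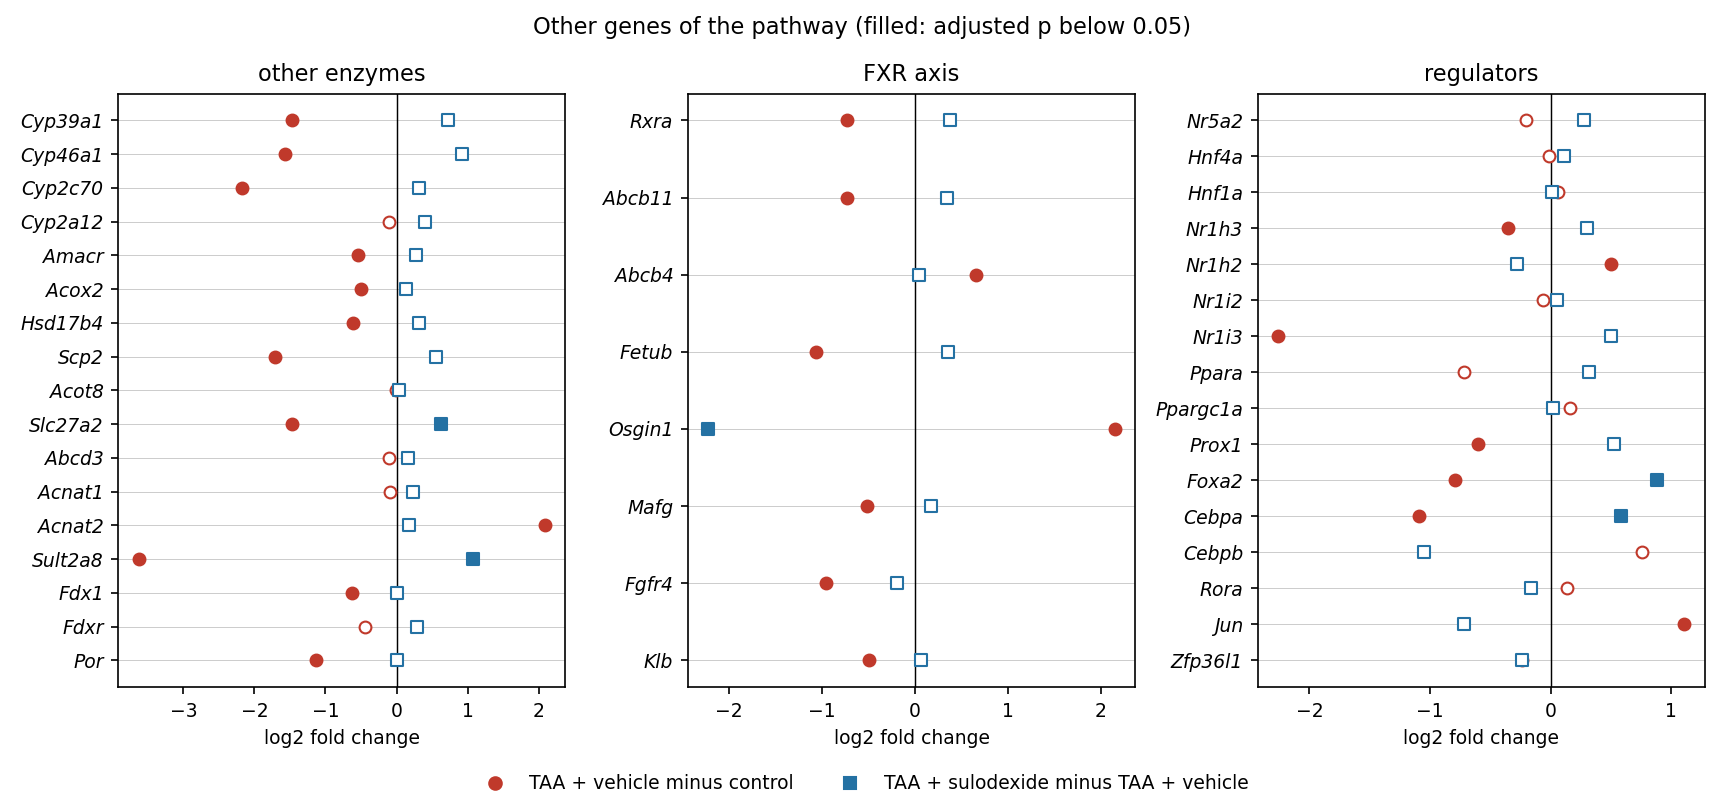
Fitted log2 fold changes of the tested other enzymes (17), FXR axis genes (8) and regulators (16 of the 17), for TAA with vehicle against control (circles) and sulodexide against vehicle (squares), filled where the edgeR adjusted p was below 0.05. The circles that passed were lower in 11, 6 and 5 genes and higher in 1, 2 and 2, while 2, 1 and 2 squares passed.

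Of 11 other bile acid and organic anion transporters, 6 fell and 2 rose with TAA and vehicle, against 20.4% lower and 23.1% higher over all tested genes. The basolateral exporter gene Abcc4 went from 1.93 ± 0.235 to 78.3 ± 17.6 CPM (log2 5.33) and the uptake carrier gene Slc10a1 from 653 ± 50.1 to 172 ± 8.79 CPM (log2 -1.93). Between sulodexide and vehicle 2 rose and 1 fell, where 4.8% of all tested genes changed. With sulodexide Abcc4 was at 33.4 ± 10.8 CPM, lower than with vehicle (log2 -1.23, adjusted p = 0.0164), and Slco1b2 at 308 ± 11.6 CPM, higher than with vehicle (log2 0.63, adjusted p = 0.0178). Both calls were lost without vehicle library 1 (adjusted p = 0.0625 and 0.0793) or sulodexide library 2 (0.0681 and 0.0674), and that of Slco1b2 also without vehicle library 3 (0.0706). Slc10a1 was at 253 ± 23.9 CPM, higher than with vehicle (log2 0.56, adjusted p = 0.0246), a call lost without vehicle library 1 or 3 or sulodexide library 1 or 2 (adjusted p 0.0559 to 0.102) and when only these groups were fitted (0.0569).

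Other signals moved between the same groups. In the circadian clock list, whose output factor DBP is known to act on Cyp7a1, 4 of 14 genes rose and 7 fell with TAA and vehicle (23.1% and 20.4% of all tested genes). The changes were led by Arntl (2.32), Npas2 (5.08) and Tef (-1.68). Npas2 had only 1, 3 and 2 counts in the control libraries, so the size of its rise is uncertain. Between sulodexide and vehicle 5 rose, against 1.39% of all tested genes, and 0 fell (1 lower at an unadjusted p below 0.05, 0 with DESeq2), led by Nr1d1 (0.72, adjusted p = 0.0087), Dbp (1.63, adjusted p = 0.0102) and Tef (0.75, adjusted p = 0.0164). The count that rose was 2 without vehicle library 1 or sulodexide library 2 and 1 without vehicle library 3, where Dbp (adjusted p = 0.0509) and Tef (0.0508) missed the threshold. Nr1d1 moved further from control with sulodexide, at 25.8 ± 0.466, 55.8 ± 5.44 and 92 ± 3.49 CPM in the control, vehicle and sulodexide groups. Dbp (68.2 ± 5.83, 21.3 ± 2.65 and 66 ± 28.4 CPM) and Tef (227 ± 32.4, 71 ± 5.63 and 119 ± 14.3 CPM) moved towards control. The summed level of the list was 674 to 765 CPM in controls, 428 to 442 with vehicle and 596 to 651 with sulodexide, with no gene at 0. The labels used here give no time of day of sampling, and the part of these genes in the result was not tested.

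Of 9 male-biased liver genes 6 were lower with TAA and vehicle, led by Mup3 (-1.78), Ugt2b38 (-4.13) and Hsd3b5 (-6.27), where 20.4% of all tested genes were lower. The summed level of the 9 genes went from 13000 to 19300 CPM in controls to 4890 to 10500 with vehicle and 10400 to 18600 with sulodexide. Most of that sum was Mup20, at 4110 ± 751, 4820 ± 1820 and 8970 ± 2830 CPM in the control, vehicle and sulodexide groups, and Mup3, at 8160 ± 2260, 2380 ± 779 and 4150 ± 900 CPM (SD, n = 3). With sulodexide against control Mup20 was higher (log2 1.13, adjusted p = 0.0278) and Mup3 lower (log2 -0.98, adjusted p = 0.0254). The call of Mup20 was lost without control library 1 or 2 or sulodexide library 2 or 3 (adjusted p 0.0599 to 0.0962) and that of Mup3 without control library 3 or sulodexide library 1 or 2 (0.0637 to 0.0848). Reads of both may be split among their near-identical copies. Hsd3b5 was at 375 ± 35.4, 4.93 ± 5.24 and 26.2 ± 23.6 CPM in the same groups. Of 5 tested female-biased genes 4 rose with TAA and vehicle, where 23.1% of all tested genes rose. They were led by Cyp2a4, from 1.86 ± 2.35 to 1620 ± 154 CPM, Cyp3a44 (log2 6.44) and Cyp2b9 (log2 2.68). In the control libraries Cyp3a44 had only 1, 4 and 0 counts and Cyp2b9 8, 20 and 2, so the size of these rises is uncertain. Cyp17a1 did not pass and went the other way, from 14.5 ± 4.41 to 4.98 ± 4.2 CPM (log2 -1.52). It was lower at an unadjusted p below 0.05 and with DESeq2. The sum of that list was 12.7 to 27.6 CPM in controls, 1510 to 1810 with vehicle and 1070 to 1380 with sulodexide, nearly all of it Cyp2a4, whose reads may be shared with its close relative Cyp2a5. Between sulodexide and vehicle 0 of either list passed in the edgeR fit with groups alone. At an unadjusted p below 0.05, 3 male-biased and 1 female-biased genes were higher, a threshold for which no share of all genes is given here. With DESeq2 2 male-biased and 0 female-biased genes were higher, where 388 of 13694 tested genes were higher. Their part in the levels of Cyp7b1 and the other genes was not tested.

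In whole liver, fewer hepatocytes and less RNA of a gene per hepatocyte cannot be told apart. Most of the hepatocyte marker sum was Alb, at 75700 ± 8760, 75700 ± 7770 and 80600 ± 11000 CPM in the control, vehicle and sulodexide groups (SD, n = 3). Apoa1 was at 10600 ± 1310, 3350 ± 499 and 3940 ± 409 CPM. The 9 hepatocyte markers summed to 108000 to 133000 CPM in controls, 93900 to 114000 with vehicle and 102000 to 126000 with sulodexide. Of these 4 fell and 0 rose with TAA and vehicle (median -0.56), or 1 and 1 with total counts. At an unadjusted p below 0.05 and with DESeq2, 0 were higher. Between sulodexide and vehicle 0 passed (median 0.25). There 3 were higher at an unadjusted p below 0.05, with no share of all genes given here. With DESeq2 1 was higher, where 388 of 13694 tested genes were higher. Of 10 pericentral markers 4 fell and 2 rose with TAA and vehicle, with sums of 10600 to 12800, 2840 to 3940 and 3980 to 5590 CPM in the control, vehicle and sulodexide groups. Most of the pericentral sum was Cyp2e1, at 8960 ± 1160, 2050 ± 432 and 3070 ± 833 CPM. Of 10 periportal markers 8 fell (5 with total counts), with sums of 16100 to 20800, 9340 to 9610 and 11000 to 12600 CPM. Over all tested genes 20.4% fell and 23.1% rose with TAA and vehicle.

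Cholangiocyte markers rose in 9 of 9 tested genes with TAA and vehicle and fell in 8 of 9 between sulodexide and vehicle, with sums of 36.8 to 52.9, 227 to 542 and 47.3 to 116 CPM. The latter count was 3 or 4 without vehicle library 1 or 3 or sulodexide library 2 or 3. Most of the cholangiocyte sum was Spp1, at 34.9 ± 6.74, 331 ± 138 and 61.2 ± 27.8 CPM in the control, vehicle and sulodexide groups. Over all tested genes 23.1% rose and 20.4% fell with TAA and vehicle, and 1.39% rose and 3.41% fell between sulodexide and vehicle. All 10 markers of stellate cells and myofibroblasts rose with TAA and vehicle, and 5 fell between sulodexide and vehicle, with sums of 173 to 207, 467 to 783 and 259 to 293 CPM, and the count that fell was 3 without vehicle library 3 or sulodexide library 2. Macrophage markers rose in 8 of 10 (214 to 241, 338 to 700 and 301 to 683 CPM), leukocyte markers in 5 of 6 (5.23 to 9.73, 59.4 to 189 and 34 to 94 CPM), and endothelial markers fell in 1 of 6 (203 to 250, 186 to 218 and 209 to 281 CPM). Most of the leukocyte sum was Igkc, at 5.73 ± 1.8, 96 ± 53.1 and 59.9 ± 29.9 CPM. The macrophage count was 5 without the filter on low counts and 4 or 5 without any 1 of the controls or without vehicle library 1, and the endothelial count 0 with total counts and without control library 1 or 2 or vehicle library 2 or 3. In the control and sulodexide libraries 1 or 2 of the 10 cholangiocyte markers were at 0 counts. Timp1, Trem2, Gpnmb and S100a8 were at 0 in 1 or 2 of the controls. The part of these lists in the changes of the bile acid synthesis genes was not tested.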

How the data were processed

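The values analysed are the gene counts and FPKM of 9 libraries as deposited by the authors in a single table. The submitters' processing notes name the tools HISAT2 2.0.4 and StringTie 1.3.0 and, as builds, mm10 and GRCm38.p4, in no stated role or order. Which program counted reads per gene, and with which strand setting, is not given in the sources used here, so a gene and an overlapping gene may share reads. Per the labels' protocols, total RNA was DNase-treated and mRNA libraries were made.

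Counts were tested in R 4.3.3 with edgeR 4.0.16: filterByExpr (minimum count 10), TMM factors, robust quasi-likelihood F-test over all 9 libraries with group means, Benjamini-Hochberg over 13701 genes, threshold 0.05. The SE is the log2 change divided by the square root of F. Alternatives were other scalings, no filter, a replicate block, only the groups compared, each library left out, DESeq2 1.42.0, and limma 3.58.1 on log2(FPKM + 1) and log2(FPKM + 0.1). The fit was tested on simulated data. The members and gene lists were chosen with earlier results of these data known. Of 176 listed genes 175 were in the table. Named genes were all 10 members, the genes that passed of the other enzymes, FXR axis and regulators, the 2 transporters and the 3 clock, male-biased and female-biased genes with the smallest p, and the 3 genes most like each member by log2 CPM (prior count 2). A named result of these lists is not reported here, though the counts include it. Gene overlaps were read from GENCODE M21, in which all 10 members have the coordinates of the table. Same-group libraries differed beyond sampling noise (chi-square per gene 20.16 to 50.9).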

Additional observations from a re-analysis of the deposited data

How the results depend on the processing

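The fall of Cyp7a1, Cyp27a1, Cyp7b1, Baat, Akr1d1 and Nr1h4 with TAA and vehicle kept its direction and its side of the threshold under all 15 alternatives for each gene. The count of the 10 genes lower with sulodexide than in controls was 3 with total counts and 3 with limma on log2(FPKM + 1) without a filter, against 6. The count higher with sulodexide than with vehicle was 2 with DESeq2, against 1, and ranged from 0 to 1 when 1 library was left out (0 without vehicle library 1 or 3). Over all genes, 386 changed between sulodexide and vehicle when only these groups were fitted and 1142 with DESeq2, against 658. With 1 library left out this count ranged from 140 to 859: it was 140 without sulodexide library 2, 143 without vehicle library 3, 177 without vehicle library 1 and 362 without sulodexide library 3. The count between sulodexide and control ranged from 2033 (without control library 2; 2064 without control library 3) to 2963, against 3101. Directions turned in genes that had not passed: between sulodexide and vehicle, Cyp27a1 was at -0.05 with total counts and with the 3 FPKM settings, Cyp8b1 at 0.11 without vehicle library 2 and 0.07 without sulodexide library 1 (range with 1 library left out -0.29 to 0.11), and Hsd3b7 at 0.02 without sulodexide library 1 (range -0.31 to 0.02). Between sulodexide and control, Nr0b2 was at 0.19 with total counts, 0.42, 0.01, 0.19 and 0.27 without control libraries 1 and 2 and sulodexide libraries 1 and 2 (range -0.77 to 0.42), and 0.23, 0.25 and 0.23 with the FPKM settings. The cause was not tested. Over all tested genes, replicate numbers did not pair the libraries (r of deviations -0.07 to 0.142 in 9 same-numbered pairs, 2 of them over 0.1). In 6 of 18 cases a library correlated best with its own number. In Cyp7b1, Cyp8b1, Baat and Slc27a5, library 1 was lowest and library 2 highest in both TAA groups. The remaining genes of the 10 did not have that order in both, and a pairing within these genes was not tested. With the replicate block 3022 genes were higher and 2744 lower with TAA and vehicle, 199 and 450 between sulodexide and vehicle, and 1450 and 1534 between sulodexide and control. The calls of the 10 genes stayed as without it, but their adjusted p moved. Between sulodexide and vehicle it went from 0.0156 to 0.0018 for Cyp7a1 and from 0.302 to 0.0938 for Cyp7b1. For others it went up, such as Nr1h4 (0.0861 to 0.115). With the block the male-biased genes Mup20 (0.92, adjusted p = 0.0275) and Mup3 (0.83, adjusted p = 0.0116) were higher between sulodexide and vehicle, and with TAA and vehicle 4 macrophage markers rose and 0 endothelial markers fell (Kdr at adjusted p = 0.0501). With 3 libraries a group, an exact permutation test of a single gene cannot go below p = 0.1.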
